A study of Mus musculus with 27 samples.

Results

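The 9 genes described here are *Tbx6*, *Msgn1*, *Mesp1*, *Mesp2*, *Hes7*, *Lfng*, *Dll1*, *Dll3* and *Ripply2*, which are known from the presomitic mesoderm and its segmentation clock. They were matched by symbol to the gene identifiers of RNA-seq tables that hold 48795 genes, and all 9 were found. The tables come from 27 libraries of mouse cells differentiated in culture from embryonic stem cells toward the gonad, with 3 libraries in each of 9 groups. Every group derived from a single clone, clone 7, of XY cells from an F1 C57BL/6 x CBA cross that carried the Tesco-CFP reporter, a testis enhancer of *Sox9* driving a fluorescent protein, and R26-rtTA, which makes genes inducible by doxycycline. Embryonic stem cells (ESCs) were taken to epiblast stem cell-like cells (EpiSCs) with Activin A (20 ng/ml) and bFGF (12 ng/ml) over 2.5 days. EpiSCs became early mesoderm (M) over 36 hours with bFGF (20 ng/ml), BMP (10 ng/ml) and LY294002 (10 μM), an inhibitor of phosphoinositide 3-kinase. M cells were then cultured in 1 of 5 media for intermediate mesoderm, each with bFGF (5 ng/ml) and BMP (20 ng/ml). IM1 had nothing more, and IM3 had retinoic acid (100 nM). IM2 had retinoic acid (100 nM) and Activin A (10 ng/ml), IM4 had retinoic acid (100 nM) and CHIR99021 (0.3 μM), which activates Wnt signalling by inhibiting GSK3, and IM5 had all of these agents. Induced Sertoli-like cells (iSLCs) came from IM3 cells infected with lentiviruses for *Nr5a1* and *Dmrt1*, induced with doxycycline and sorted for CFP, so they differ from IM3 in virus, culture and sorting together. The study calls its replicates biological, but the labels do not say whether the libraries of a group came from separate cultures, so p-values measure the spread between these libraries.

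The presomitic mesoderm is the tissue at the tail end of the embryo from which somites, the blocks that become vertebrae and skeletal muscle, bud off at regular intervals. The T-box factor TBX6 and the basic helix-loop-helix factor MSGN1 turn cells of the primitive streak and tail bud into presomitic mesoderm, under Wnt and FGF signals. In this tissue, Notch signalling oscillates: DLL1 is the activating ligand, DLL3 acts in the same cell to dampen the pathway, LFNG is a sugar-transferring enzyme that modifies the receptor, and HES7 is a repressor that shuts off its own gene and *Lfng* in each cycle. MESP2 then fixes the boundary of the next somite and induces *Ripply2*, whose product helps to remove TBX6. MESP1, encoded beside MESP2, also marks the earliest mesoderm leaving the primitive streak, including the precursors of the heart.

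The libraries held 35923040 to 84876603 expected counts, with a median of 61504816. Levels are given as TPM, a measure of transcripts that is scaled to the same total in each library and corrected for gene length, and tests used edgeR's quasi-likelihood test on expected counts, with p-values adjusted over 20839 genes. The SE beside a log2 fold change is the size of that change divided by the square root of the test's F statistic. It is not a separately fitted standard error and can fall below counting error where a group has few reads. Following the study's thresholds, a gene was called differentially expressed (DE) if its adjusted p was no more than 0.01 and it changed 2-fold or more. Its mean normalised read count also had to reach 100, over the 27 libraries together and in 1 or both groups of the comparison. Of the 9 genes, 8 passed the filter on low counts and *Ripply2* did not. The label checks went with the groups for the stem cell and mesoderm stages and for the transgenes: *Nr5a1* had 93.8 ± 6.55 TPM (SD, n = 3) and *Dmrt1* 213.2 ± 18.7 TPM in iSLCs, against means of 0.09 and 0.45 TPM in IM3. They did not go with them everywhere. *Klf4*, of the stem cell list, had a mean of 19.6 TPM in IM1 against 1.41 TPM in EpiSCs. In the IM list, *Pax2* and *Pax8*, which define nephric intermediate mesoderm, had means of at most 0.22 and 0.13 TPM in the IM groups. *Lhx1* was highest in M, at 56.5 TPM. *Wt1* had 148.8 TPM in IM3 against 2.42 in M, and *Osr1* 3.49 in IM1 against 0.2 in M. In iSLCs against IM3, the Sertoli cell hormone gene *Amh* had means of 0.56 and 0.44 TPM and *Sox9* 24.8 and 40.0. *Cldn11* had 7.05 and 0.483, *Sox8* 6.93 and 3.9, and *Dhh* 1.86 and 0.7. The 6 genes of adult red blood cells summed to 3.9 to 27.14 CPM (read counts scaled to the same total) in ESC, M, IM3 and IM4 libraries and to 0.38 to 1.39 in the rest, a split that crosses several comparisons below.

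The summed level of the 9 genes was highest at the M stage. It was 262.3 to 277.5 TPM in the M libraries, 50.2 to 53.9 TPM in EpiSCs, 15.7 to 18.5 TPM in ESCs and 20.4 to 22.4 TPM in iSLCs. It was 6.47 to 6.79 TPM in IM1 and between 2.46 and 4.95 TPM in each library of IM2 to IM5. The mean was highest in M for 6 of the 9 genes, in EpiSCs for *Dll3* and in iSLCs for *Hes7* and *Lfng*, and FPKM gave the same groups. The makeup of the sum differed by stage: *Dll3* made up 70.5% of it in EpiSCs, *Mesp1* 32.2% and *Msgn1* 24.0% of it in M, and *Lfng* 72.1% of it in iSLCs. In bulk RNA, fewer cells expressing a gene and less RNA per cell cannot be told apart, nor can cells that oscillate out of phase from cells with a steady level.

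**Figure D1:**
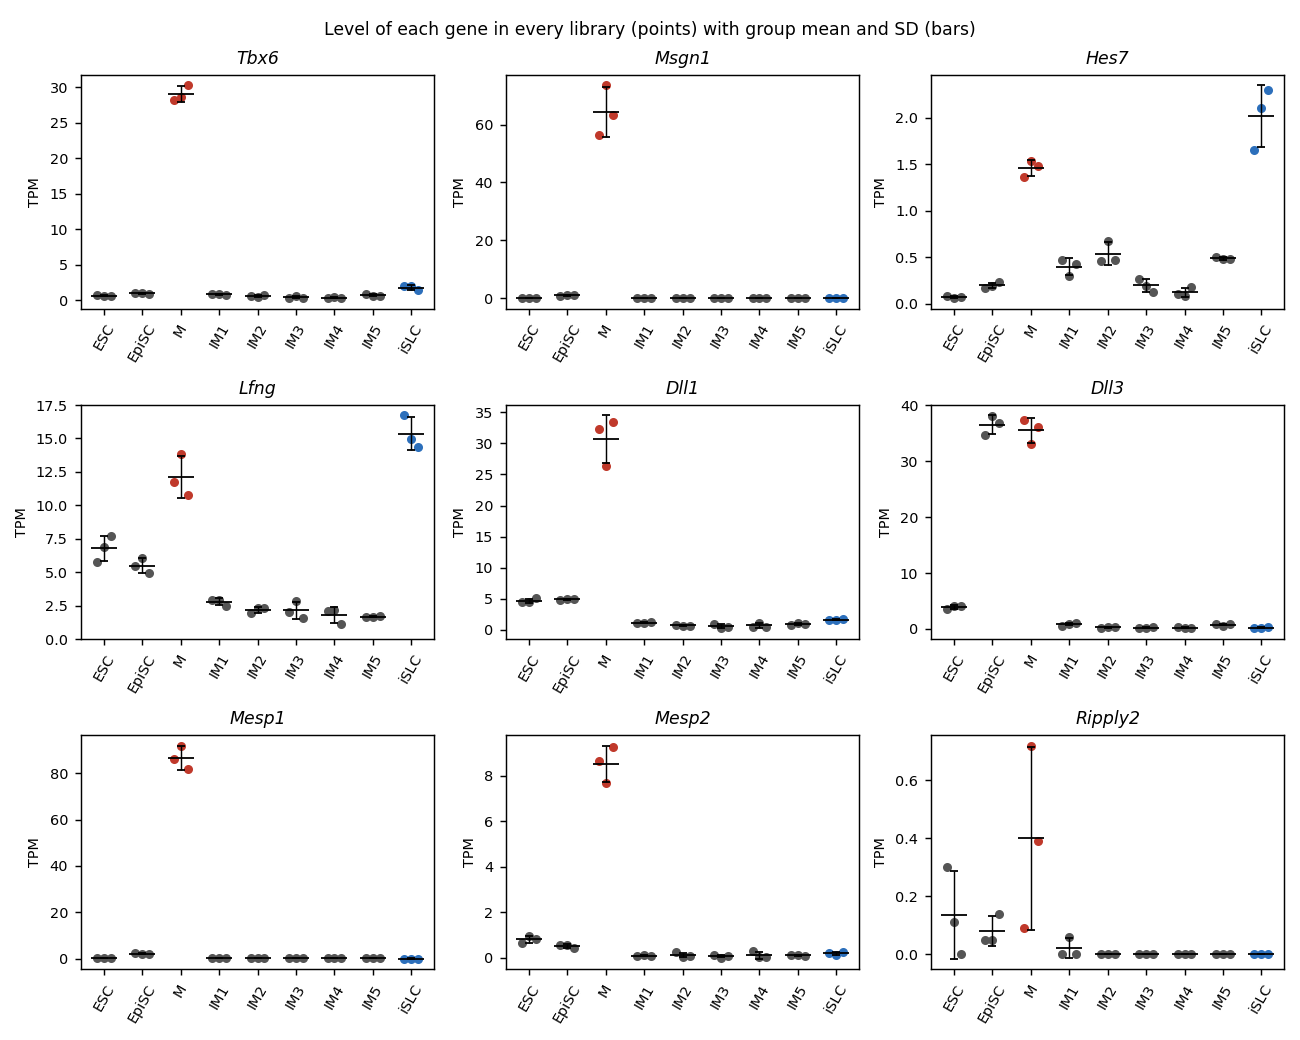
TPM of each of the 9 genes (vertical axes, linear, each with its own range) in the 9 groups. Points are libraries, M in red and iSLC in blue, and black bars are the group mean and SD (n = 3). M stands far above the other groups for *Tbx6*, *Msgn1*, *Dll1*, *Mesp1* and *Mesp2*. *Dll3* is as high in EpiSC as in M, and *Hes7* and *Lfng* are highest in iSLC.

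*Tbx6* (ENSMUSG00000030699, GRCm38 chromosome 7, 126781483 to 126785560, plus strand) stood at 28.14, 28.66 and 30.29 TPM in the M libraries. EpiSCs had 1.06, 1.01 and 0.84 TPM, and ESCs 0.71, 0.67 and 0.61 TPM. The M libraries were clear of every other library, since no library outside M passed 1.96 TPM. The IM libraries lay between 0.31 and 0.92 TPM, and the iSLC libraries, at 1.96, 1.96 and 1.39 TPM, formed the second highest group without overlapping EpiSCs.

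*Msgn1* (ENSMUSG00000047002, chromosome 12, 11208360 to 11208972, minus strand, a gene of a single exon) had the sharpest limits of the 9. It had 56.46, 73.62 and 63.23 TPM in M and 0.88, 1.14 and 0.95 TPM in EpiSCs. No read was counted in the ESC, IM2, IM3, IM4, IM5 or iSLC libraries, and IM1 held 2 reads, both in a single library. A count of 0 allows up to 3 reads in a library, so these zeros are limits set by depth.

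The upstream sequences of the 2 factors that specify presomitic mesoderm are shown because both genes are switched on at the same step. They are taken from RefSeq's GRCm38.p6 starts, cover at most the 250 bases before the start, leave out bases in the gene's own GENCODE exons, and run 5′ to 3′ on the gene's strand. Capitals mark matches on either strand to TGGGAA, a core of sites for the Notch effector RBPJ (TTCCCA on the opposite strand), and to CTTTGA, a core of sites for the Wnt effectors TCF and LEF (TCAAAG on the opposite strand).
*Msgn1*, chr12:11208973-11209198, minus strand: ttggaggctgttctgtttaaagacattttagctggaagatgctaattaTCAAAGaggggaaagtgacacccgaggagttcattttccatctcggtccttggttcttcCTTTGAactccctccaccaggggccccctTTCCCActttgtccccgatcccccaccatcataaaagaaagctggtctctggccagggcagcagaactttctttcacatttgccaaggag
*Tbx6*, chr7:126781233-126781482, plus strand: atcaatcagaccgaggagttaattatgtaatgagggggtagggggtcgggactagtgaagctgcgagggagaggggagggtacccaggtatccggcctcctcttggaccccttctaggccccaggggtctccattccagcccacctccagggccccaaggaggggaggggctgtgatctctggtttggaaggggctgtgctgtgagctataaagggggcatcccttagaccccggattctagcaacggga

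The *Msgn1* sequence holds CTTTGA on each strand and TGGGAA on the strand opposite to the printed one, and the *Tbx6* sequence holds neither. In the windows of 250 bases before the starts, TGGGAA was found for 3 of the 9 genes (*Msgn1*, *Hes7* and *Lfng*) and in 21.6% of 32851 windows of all genes. CTTTGA was found for 2 of the 9 (*Msgn1* and *Mesp1*) and in 13.8% of the windows, and GGTGTG, a core of T-box sites, for 2 of the 9 (*Dll1* and *Ripply2*) and in 16.3%. These windows keep the bases that the printed sequences leave out, and the *Mesp1* matches lie in such bases. Each gene was counted once although *Dll1* had 2 windows, whereas the shares are per window. These letter matches describe the sequences and are not measured binding.

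*Mesp1* (ENSMUSG00000030544, chromosome 7, 79792241 to 79793788, minus strand) was the most abundant of the 9 genes in M, with 86.04, 92.00 and 81.72 TPM. EpiSCs had 2.43, 1.86 and 2.10 TPM, ESCs 0.16, 0.17 and 0.11 TPM, and the IM libraries 0.15 to 0.42 TPM. iSLCs had 0.00, 0.03 and 0.03 TPM, below every IM library. Its neighbour *Mesp2* (ENSMUSG00000030543, 79810727 to 79813439, plus strand) was also highest in M, at a lower level, with 8.63, 7.70 and 9.27 TPM. EpiSCs had 0.58, 0.59 and 0.44 TPM of *Mesp2* and ESCs 0.67, 0.95 and 0.83 TPM, so that, unlike *Mesp1*, it was not higher in EpiSCs than in ESCs. The other libraries had 0.02 to 0.29 TPM. The *Mesp2* upstream sequence is shown as the region of the boundary-setting member of the pair and holds none of the 3 motifs.
*Mesp2*, chr7:79810477-79810726, plus strand: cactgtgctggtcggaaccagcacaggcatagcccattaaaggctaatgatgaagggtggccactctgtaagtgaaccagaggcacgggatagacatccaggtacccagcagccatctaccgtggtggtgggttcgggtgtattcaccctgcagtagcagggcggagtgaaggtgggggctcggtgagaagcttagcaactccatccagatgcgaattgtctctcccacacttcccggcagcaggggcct

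*Ripply2* (ENSMUSG00000047897, chromosome 9, 87015537 to 87019917, plus strand), induced by MESP2 in the embryo, was barely detected. M libraries had 0.09, 0.72 and 0.39 TPM, from 1, 7 and 6 reads. The lowest M library was under the highest ESC library, at 0.30 TPM, so the groups overlapped. It had no read in IM2, IM3, IM4, IM5 and iSLC and was not tested. Thus *Mesp2* had a mean of 8.53 TPM in M, where *Ripply2* had 0.4 TPM.

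The Notch ligands differed from each other at the EpiSC stage. *Dll1* (ENSMUSG00000014773, chromosome 17, 15367354 to 15376872, minus strand), the activating ligand, had 4.46, 4.56 and 5.10 TPM in ESCs and 4.86, 4.92 and 4.92 TPM in EpiSCs, which overlapped. It had 32.34, 26.38 and 33.42 TPM in M, above every other library. The IM libraries had 0.31 to 1.21 TPM and iSLCs 1.58, 1.65 and 1.72 TPM. *Dll3* (ENSMUSG00000003436, chromosome 7, 28293553 to 28302238, minus strand), the inhibitory ligand, was already at 34.75, 38.07 and 36.83 TPM in EpiSCs, against 3.55, 4.18 and 4.08 TPM in ESCs. Its M libraries, at 37.45, 33.10 and 36.08 TPM, overlapped those of EpiSCs. It had 0.18 to 0.98 TPM in the IM libraries and 0.23, 0.11 and 0.38 TPM in iSLCs.

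The oscillating repressor *Hes7* (ENSMUSG00000023781, chromosome 11, 69120404 to 69124055, plus strand) was low throughout. It had 1.36, 1.53 and 1.48 TPM in M and 1.65, 2.10 and 2.30 TPM in iSLCs. IM2 had 0.46, 0.68 and 0.47 TPM and IM5 0.50, 0.48 and 0.48 TPM, whereas no library of ESCs, EpiSCs, IM3 or IM4 passed 0.27 TPM. The Notch-modifying enzyme gene *Lfng* (ENSMUSG00000029570, chromosome 5, 140607320 to 140615545, plus strand) was the most evenly spread of the 9. It had 11.78, 13.81 and 10.77 TPM in M, 5.79, 6.89 and 7.67 TPM in ESCs, and 5.46, 6.08 and 4.93 TPM in EpiSCs. IM libraries had 1.11 to 2.93 TPM, and iSLCs had 16.74, 14.98 and 14.33 TPM. On the TPM scale iSLC libraries were above M for both genes, but on normalised read counts the groups overlapped. *Hes7* then had 91.9 to 128.5 counts in iSLCs and 83.8 to 100 in M, and *Lfng* had 943 to 1025 and 796.3 to 950. The upstream sequences of these 2 clock genes are shown because they alone had their highest mean outside the M and EpiSC stages.
*Hes7*, chr11:69120203-69120403, plus strand: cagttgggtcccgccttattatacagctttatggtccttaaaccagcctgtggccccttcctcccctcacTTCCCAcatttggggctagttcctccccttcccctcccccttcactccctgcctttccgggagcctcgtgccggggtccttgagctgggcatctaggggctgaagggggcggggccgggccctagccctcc
*Lfng*, chr5:140607091-140607319, plus strand: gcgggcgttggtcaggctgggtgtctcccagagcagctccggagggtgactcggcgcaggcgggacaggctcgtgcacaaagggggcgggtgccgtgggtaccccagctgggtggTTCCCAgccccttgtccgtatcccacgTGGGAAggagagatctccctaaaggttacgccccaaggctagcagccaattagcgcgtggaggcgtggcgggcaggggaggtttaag
Each holds TGGGAA on the strand opposite to the printed one, and *Lfng* also holds it on the printed strand.

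From ESCs to EpiSCs, *Dll3* rose by 3.14 on the log2 scale (SE 0.11, adjusted p = 1.96e-18) and was the 1 gene of the 9 called DE, where 8.07% of all genes tested were DE. Without the count minimum, *Msgn1*, *Hes7* and *Mesp1* also passed, giving 4 genes beside 18.4% of all genes. *Mesp1* rose by 3.87 (SE 0.22, adjusted p = 3.89e-14), from 6.27 to 93.9 normalised counts. *Msgn1* went from 0 reads to 50 and was at least 4.07-fold higher. *Hes7* rose by 1.58 (SE 0.37, adjusted p = 0.000736) from 4.43 to 13.2 counts, although its adjusted p was 0.0107 when the 2 groups were fitted alone. *Dll1* (0.06, SE 0.12, adjusted p = 0.676) and *Lfng* (-0.01, SE 0.13, adjusted p = 0.945) were not called. Genes of the tail bud and primitive streak also moved at this step: 9 of 15 were DE higher and 2 lower, with a median of 2.33 against -0.003 over all genes tested. Among them *T*, the founding T-box factor of mesoderm, rose by 6.60 (SE 0.16, adjusted p = 2.29e-21) and *Fgf8*, a tail bud growth factor, by 6.04 (SE 0.16, adjusted p = 8.53e-21).

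From EpiSCs to M, 4 of the 9 genes were DE, all higher, where 14.5% of all genes were DE and 6.79% were higher. *Msgn1* rose by 5.87 on the log2 scale (SE 0.25, adjusted p = 2.46e-11), *Mesp1* by 5.26 (SE 0.11, adjusted p = 1.6e-23), *Tbx6* by 4.83 (SE 0.15, adjusted p = 7.49e-20) and *Dll1* by 2.67 (SE 0.12, adjusted p = 9.72e-17). *Mesp2* rose by 3.91 (SE 0.3, adjusted p = 1.04e-11) and *Hes7* by 2.77 (SE 0.25, adjusted p = 1.6e-10), but their means over all libraries, 79.8 and 35.7 counts, were under the count minimum. Without it 6 of the 9 passed, beside 28% of all genes. *Lfng* was higher by 0.89 (SE 0.12, adjusted p = 4.13e-07), under the 2-fold minimum, and its fold passed with an offset for GC content or for transcript length. *Dll3* differed by -0.09 (SE 0.096, adjusted p = 0.426). The median over the 8 genes tested was 3.34, against -0.056 over all genes tested.

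The call for *Msgn1* sat on the count minimum. Its mean over all libraries was 100.8 counts, with reads in 3 of the 9 groups. It fell under 100 with DESeq2's size factors, with DESeq2's test or without any of the M libraries, which left 3 DE genes from EpiSCs to M and 5 in each IM comparison with M below. *Tbx6* and *Mesp1* also met the minimum only through M. Their highest group means outside M were 91.9 counts in iSLCs and 93.9 in EpiSCs. The calls of these genes thus needed a high level in M, which largely set their direction against it.

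The pathways around these genes moved unevenly at this step. Of the tail bud and primitive streak genes, 7 of 15 were DE higher and 2 lower (median 1.05), with the ligand gene *Wnt5a* up by 5.18 (SE 0.071, adjusted p = 5.54e-27), the Wnt amplifier *Rspo3* by 4.99 (SE 0.12, adjusted p = 4.04e-22) and the growth factor gene *Fgf4* at -4.48 (SE 0.11, adjusted p = 2.89e-22). Genes known to cycle with Wnt signalling were DE higher in 6 of 9, including the Wnt inhibitors *Dkk1* (2.88, SE 0.098, adjusted p = 2.76e-19) and *Nkd1* (2.65, SE 0.089, adjusted p = 2.17e-19), and none was lower. Genes known to cycle with FGF signalling were DE higher in 4 of 7, none lower. Other Notch pathway genes were mixed, with 4 of 19 higher and 2 lower: the effector genes *Hey1* (2.65, SE 0.11, adjusted p = 2.28e-17) and *Hey2* (2.12, SE 0.15, adjusted p = 9.53e-13) rose, and the enzyme gene *Mfng*, a relative of *Lfng*, fell by 4.46 (SE 0.15, adjusted p = 1.97e-19). Of 20 other segmentation and somite genes, 17 were tested, 2 were higher and 3 lower, with a median of -1.01. The boundary gene *Epha4* rose by 3.53 (SE 0.067, adjusted p = 1.8e-24), and *Tcf15*, needed for epithelial somites, fell by 2.74 (SE 0.16, adjusted p = 1.68e-14).

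Other cell types moved with the M stage too. Of the cardiac mesoderm genes, 6 of 10 were DE higher, none lower, and their sum was 404.5 to 471.8 TPM in M libraries and 16.4 to 17.2 TPM in EpiSCs. Neural genes were DE lower in 6 of 14, none higher, and summed to 46.6 to 54.7 TPM in M and 199.6 to 204.1 TPM in EpiSCs. Definitive endoderm genes were higher in 1 of 6 and lower in 2, at 57.7 to 63.1 and 68.6 to 74.8 TPM, and red blood cell genes were higher in 2 of 6, none lower, at 42.4 to 80.0 and 1.57 to 2.31 TPM. The part of these cells in the rise of the presomitic genes was not tested.

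**Figure D2:**
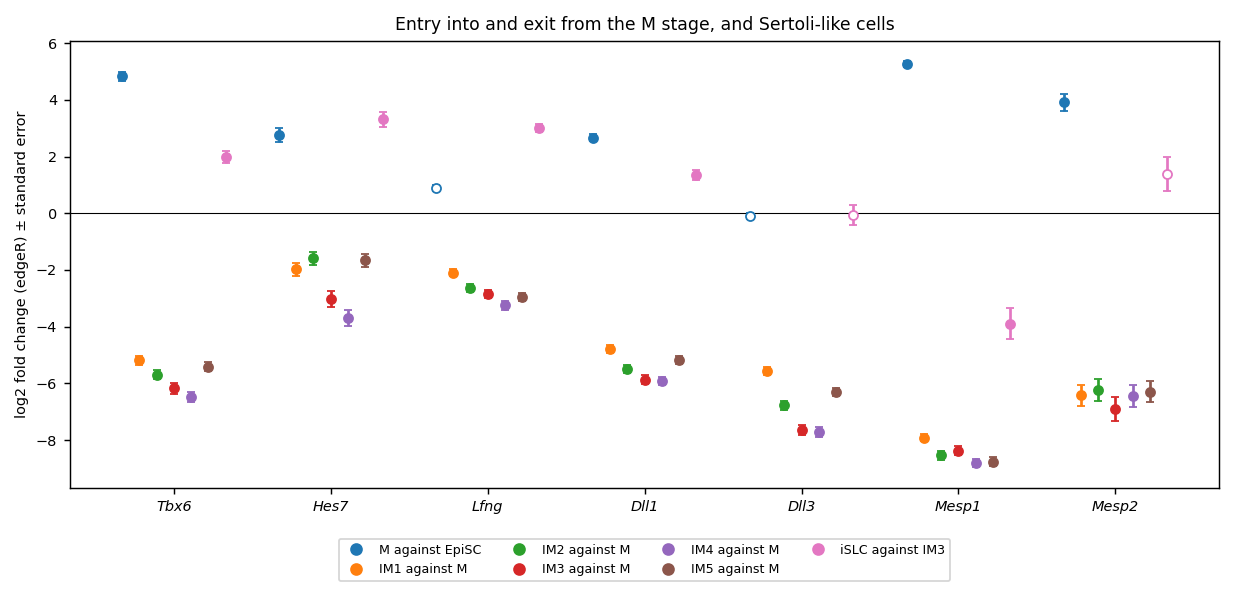
Log2 fold change from edgeR with its SE (vertical axis) for 7 of the genes. The SE is the size of the change divided by the square root of the test's F statistic, and can fall below counting error. Filled points passed an adjusted p of 0.01 and a 2-fold change with no count minimum, and open points did not. *Msgn1*, at 0 reads in several groups, and *Ripply2*, not tested, are left out. The 5 IM comparisons share the M libraries and lie below 0 for each gene. *Mesp1* is lowest, at -7.91 to -8.81, and *Hes7* and *Lfng* lie nearest 0, between -1.59 and -3.70.

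Leaving the M stage, the presomitic genes fell in each of the 5 IM media. In every one, 6 of the 9 genes were DE, all lower: *Tbx6*, *Msgn1*, *Lfng*, *Dll1*, *Dll3* and *Mesp1*. *Tbx6*, *Msgn1* and *Mesp1* met the count minimum only through M, which largely set their direction. The shares of all genes that follow are therefore no test of the set. The shares of all genes that were DE were 15.7% in IM1, 16.5% in IM2, 14.9% in IM3, 14.8% in IM4 and 16% in IM5, and the shares DE lower were 5.94%, 6.1%, 5.66%, 5.76% and 5.84%. Without the count minimum, 8 of the 9 passed in each, with *Hes7* and *Mesp2*, beside 27.9%, 28.8%, 25.9%, 25.8% and 28.2% of all genes. These comparisons share the M libraries, so they are given side by side. The median over the 8 genes tested was -5.37 in IM1, -5.96 in IM2, -6.54 in IM3, -6.45 in IM4 and -5.85 in IM5, against 0 to 0.006 over all genes tested, and placing *Msgn1* at its bound left these medians as they were.

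*Mesp1* and *Msgn1* fell furthest. *Mesp1* fell by 7.91 on the log2 scale in IM1 (SE 0.14, adjusted p = 3.74e-25) and fell by 8.81 in IM4 (SE 0.15, adjusted p = 3.01e-25), with the other media between. *Msgn1* went from 2411 reads in M to 2 in IM1, which was 1670-fold lower with a 95% exact interval of 461 to 13800 that covers counting error. It was at least 300-fold lower in IM2, 223-fold in IM3, 271-fold in IM4 and 325-fold in IM5, bounds that follow each group's depth. *Ripply2* was 19.4-fold lower in IM1 (2.95 to 819), from 14 reads to 1, and at least 1.3-fold lower in each of the other media.

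The Notch ligands and *Tbx6* fell less in IM1 than in IM3. *Dll3* changed by -5.56 in IM1 (SE 0.13, adjusted p = 1.26e-22) and by -7.64 in IM3 (SE 0.17, adjusted p = 4.38e-23). For *Dll1* the changes were -4.78 (SE 0.14, adjusted p = 7.15e-21) and -5.87 (SE 0.16, adjusted p = 1.39e-21), and for *Tbx6* they were -5.18 (SE 0.16, adjusted p = 2.19e-20) and -6.18 (SE 0.18, adjusted p = 9.32e-21). The clock genes fell least: *Lfng* changed by -2.09 (SE 0.13, adjusted p = 9.29e-14) in IM1 and by -3.25 (SE 0.15, adjusted p = 1.02e-16) in IM4, and *Hes7* by -1.59 (SE 0.23, adjusted p = 6.45e-07) in IM2 and by -3.70 (SE 0.28, adjusted p = 6.19e-12) in IM4. *Mesp2* changed by -6.23 to -6.89 across the 5 media.

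At the same step most genes of the tail bud and primitive streak fell and some segmentation and somite genes rose. Tail bud and primitive streak genes were DE lower in 8 of 15 in IM1, 11 in IM2, 12 in IM3, 12 in IM4 and 11 in IM5, and at most 1 was higher. In IM3, *T* fell by 11.38 (SE 0.23, adjusted p = 5.19e-24) and *Fgf8* fell by 10.71 (SE 0.25, adjusted p = 6.78e-23). Segmentation and somite genes were DE higher in 5 of 20 in IM1, IM3 and IM4 and in 4 in IM2 and IM5, and 1 was lower, in IM4. In IM3 the leading ones were *Tbx18*, a gene of the anterior somite that is also used in other mesoderm, which rose by 8.82 (SE 0.19, adjusted p = 1.33e-23), and *Foxc2*, which rose by 6.49 (SE 0.21, adjusted p = 1.18e-19). In the Notch pathway, the feedback inhibitor gene *Nrarp* fell by 5.20 in IM3 (SE 0.19, adjusted p = 1.1e-18), the general repressor *Hes1* fell by 1.35 (SE 0.099, adjusted p = 2.79e-12), and *Hey2* rose by 2.22 (SE 0.11, adjusted p = 5.82e-16). These were the 3 of 19 Notch genes called in IM3. Genes that cycle with Wnt were lower in 5 of 9 and higher in 2 in IM3, led by *Sp5*, a direct Wnt target, at -7.07 (SE 0.17, adjusted p = 1.57e-22), and genes that cycle with FGF were lower in 3 of 7 and higher in none. Red blood cell genes were DE lower in 2 of 6 in IM1, IM2 and IM5 and in none in IM3 and IM4, where they summed to 21.3 to 74.4 and 30.8 to 72.1 TPM against 42.4 to 80.0 TPM in M, and their part in the fall was not tested.

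**Figure D3:**
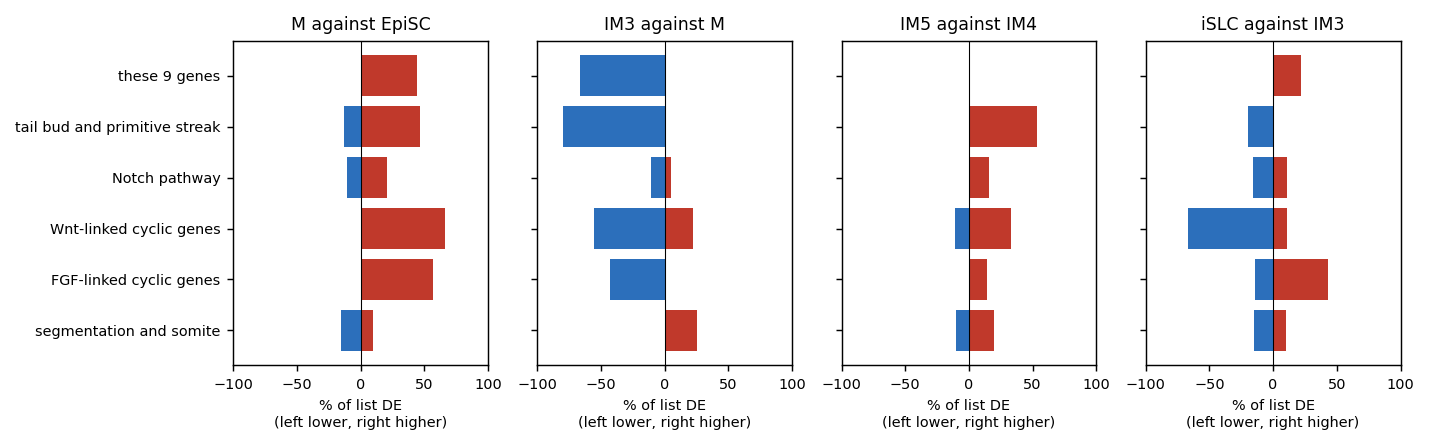
Share of each gene list called DE (horizontal axis, percent of the genes in the list), higher in red to the right and lower in blue to the left, in 4 comparisons. In IM3 against M, 6 of the 9 presomitic genes and 12 of 15 tail bud and primitive streak genes are lower and 5 of 20 segmentation and somite genes are higher.

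Among the IM media the presomitic genes were low: *Lfng* had 62.0 to 301.0 expected counts per library, *Dll1* 24.0 to 179.8, and each other gene at most 98.0. With retinoic acid alone (IM3) against neither additive (IM1), *Dll1* was called DE, 1 of the 9 genes, where 6.34% of all genes were DE. It had 132.7, 127.1 and 113.5 normalised counts in IM1 and 82.9, 35.7 and 49.4 in IM3, with no overlap, and was lower by 1.09 on the log2 scale (adjusted p = 1.41e-05). This call was lost without the second or the third IM3 library (-0.87 and just short of -1) and with an offset for GC content (-0.93), as the fold then missed 2. It was also lost when IM1 and IM3 were fitted alone, since the mean count was then under the minimum. *Dll3* had 44.8, 67.1 and 81.2 counts in IM1 and 10.5, 16.4 and 20.3 in IM3, again with no overlap. Without the count minimum it passed at -2.08 (SE 0.25, adjusted p = 1.07e-07), as did *Tbx6* at -1 (SE 0.22, adjusted p = 0.00052) and *Hes7* at -1.05 (SE 0.29, adjusted p = 0.00389), so 4 of the 9 passed, beside 12% of all genes. *Tbx6* lay on the fold minimum and was under it without the first IM3 library (-0.87) and with the GC offset (-0.71). *Hes7*, with 27.2, 17.6 and 24.9 counts in IM1 and 14.7, 10.4 and 7.26 in IM3, missed the threshold in 5 alternatives beside the libraries left out, DESeq2's test among them (adjusted p = 0.0127). *Lfng* had 213.5, 212.5 and 189.8 counts in IM1 and 120.7, 130.9 and 113.3 in IM3, lower by 0.76 (adjusted p = 0.000147), under the fold minimum. The tail bud genes moved with them, with 7 of 15 lower and 1 higher. *Nkx1-2*, a gene of tail bud progenitors, fell by 5.19 (SE 0.16, adjusted p = 3.65e-19), and in the Notch pathway, 4 of 19 lower and 1 higher, *Nrarp* fell by 4.39 (SE 0.19, adjusted p = 2.96e-16). Other cell types moved too. Red blood cell genes were higher in 2 of 6, none lower, and definitive endoderm genes were lower in 4 of 6, none higher. Cardiac mesoderm genes were lower in 4 of 10 and higher in 2, and neural genes lower in 2 of 14, none higher. The part of these cells was not tested.

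Activin A on top of retinoic acid went with more *Hes7*. Without CHIR99021, *Hes7* had 25.4, 38.3 and 26.9 normalised counts in IM2 and 14.7, 10.4 and 7.26 in IM3, a difference of 1.43 (SE 0.29, adjusted p = 0.000253). With CHIR99021 it had 31.3, 27.1 and 27.8 counts in IM5 and 6.2, 4.72 and 9.92 in IM4, a difference of 2.05 (SE 0.3, adjusted p = 3.87e-06). The groups did not overlap in either pair. IM1, with neither retinoic acid nor Activin A, had 27.2, 17.6 and 24.9 counts and overlapped both IM2 and IM5, so this level was not particular to Activin A. With the count minimum, edgeR and DESeq2 both called 0 of the 9 genes DE in either comparison, where edgeR called 3.8% and 4.09% of all genes. At an unadjusted p under 0.05 edgeR gave 2 of the genes in IM2 against IM3, *Hes7* and *Dll3*. In IM5 against IM4 it gave 4, these with *Tbx6* and *Dll1*. The share of all genes at that rule was not counted, so these counts do not mark the genes out. *Dll1* differed by 0.74 (SE 0.18, adjusted p = 0.00167), under the fold minimum, and its adjusted p was 0.115 with an offset for transcript length. Without the count minimum *Hes7* alone passed in IM2 against IM3, beside 7.24% of all genes. *Hes7*, *Tbx6* and *Dll3* passed in IM5 against IM4, beside 8%. *Dll3* had 37.3, 37.9 and 39.7 counts in IM5 and 14.9, 13.2 and 15.4 in IM4, a difference of 1.40 (SE 0.27, adjusted p = 0.000123), and in IM2 against IM3 it differed by 0.87 (SE 0.31, adjusted p = 0.025). *Tbx6* had 52.5, 32.5 and 33.8 counts in IM5 and 18.6, 21.7 and 16.5 in IM4, a difference of 1.06 (SE 0.23, adjusted p = 0.000511), and in IM2 against IM3 its libraries overlapped (0.49, SE 0.24, adjusted p = 0.115). The *Tbx6* call in IM5 against IM4 was lost when the 2 groups were fitted alone (adjusted p = 0.0172), and its fold was under 2 without the first IM5 library (0.79) and with the GC offset and replicate block (0.71). The test of whether the effect of Activin A differed with CHIR99021 called 0 of the 9 genes by edgeR and by DESeq2, where 0.0336% of all genes were called by edgeR. For *Tbx6*, *Hes7* and *Dll3* that difference was 0.57 (SE 0.34, adjusted p = 0.583), 0.61 (SE 0.43, adjusted p = 0.647) and 0.53 (SE 0.43, adjusted p = 0.691), and none of the 8 tested genes had an unadjusted p under 0.05. The tail bud genes rose with Activin A in both pairs, 9 of 15 without CHIR99021 and 8 with it and none lower, led by the early mesoderm factor *Eomes* (5.26, SE 0.15, adjusted p = 1.32e-18, and 4.91, SE 0.14, adjusted p = 1.16e-18) and *T* (3.46, SE 0.4, adjusted p = 1.19e-07, and 3.10, SE 0.31, adjusted p = 6.16e-09). Neural genes were higher in 3 of 14 in each pair and definitive endoderm genes in 4 and 2 of 6, while red blood cell genes were lower in 2 of 6 in each, and the part of these cells was not tested.

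**Figure D4:**
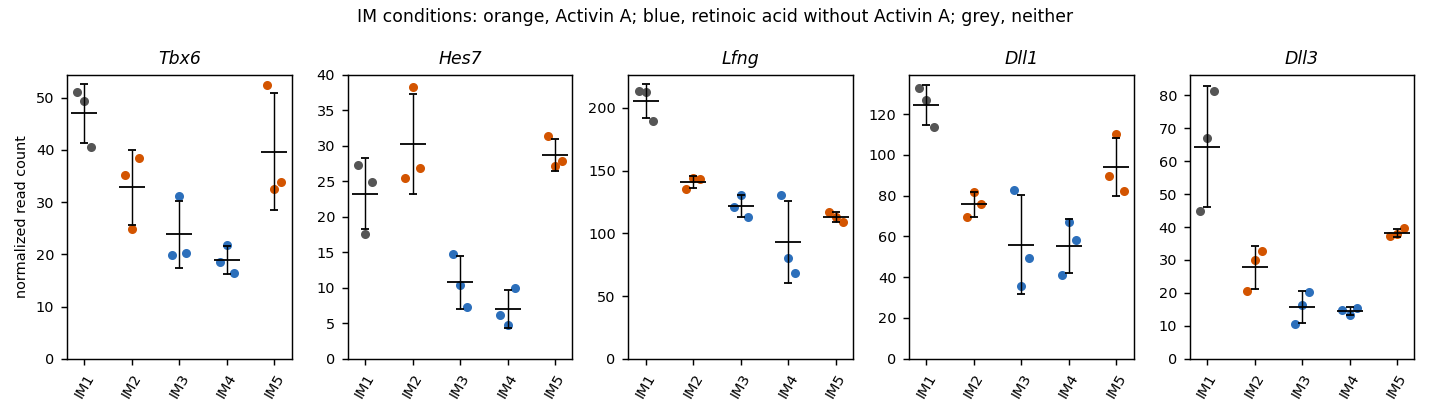
Normalised read counts (vertical axes from 0, each with its own range) of 5 genes in the IM groups. Points are libraries and bars the mean and SD (n = 3). IM1 is grey, the groups with Activin A (IM2 and IM5) are orange, and those with retinoic acid and no Activin A (IM3 and IM4) are blue. *Hes7* in IM2 and IM5, at 25.4 to 38.3 counts, lies above every library of IM3 and IM4 and overlaps IM1, at 17.6 to 27.2.

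CHIR99021 at this dose went with no called change in the presomitic genes. In IM4 against IM3 and in IM5 against IM2, edgeR called none of the 9 genes DE, where 0.101% and 0.235% of all genes were called, and DESeq2 also called none. Of the 8 tested, 1 had an unadjusted p under 0.05, *Lfng* in IM4 against IM3 (-0.40, SE 0.17, adjusted p = 0.311). How many of all genes reached that p was not counted. *Dll3* in IM5 against IM2 (0.46, SE 0.23, adjusted p = 0.239) passed with an offset for transcript length (1.23, adjusted p = 0.00627). Of the Wnt-linked cyclic genes, none of 9 was called in either comparison. Segmentation and somite genes were DE lower in 2 of 20 in IM4 against IM3 and in 1 of 20 in IM5 against IM2, none higher. In IM5 against IM2, 1 of 10 cardiac mesoderm genes was also lower and none higher.

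In iSLCs *Lfng* and *Dll1* were called higher than in IM3. *Hes7* and *Tbx6* were higher and *Mesp1* lower only by the rule without the count minimum. Against IM3, *Lfng* rose by 3.02 on the log2 scale (SE 0.14, adjusted p = 2.22e-16), from 113.3 to 130.9 counts in the IM3 libraries to 943 to 1025 in iSLCs. *Dll1* rose by 1.34 (SE 0.18, adjusted p = 2.07e-07), with 148.7, 135.1 and 160.8 counts in iSLCs. These were the 2 of the 9 genes called DE, where 19.2% of all genes were DE and 10.3% were higher. A count of 2 in 9 is near the first of these shares and does not mark the genes out as a set. Without the count minimum 5 of the 9 passed, beside 33.7% of all genes. *Hes7* rose by 3.32 (SE 0.27, adjusted p = 1.23e-11), with 91.9, 116.4 and 128.5 counts, and *Tbx6* by 1.97 (SE 0.21, adjusted p = 3.29e-09), with 102.8, 99.6 and 73.3. *Mesp1* was 17.6-fold lower, with an exact 95% interval of 4.39 to 153 for counting error, from 25 reads to 2. *Dll3* differed by -0.07 (SE 0.35, adjusted p = 0.861), *Mesp2* by 1.38 (SE 0.61, adjusted p = 0.0441), and *Msgn1* and *Ripply2* had no read in either group. In the annotation, 12.9% of the exon bases of *Hes7* are overlapped on the opposite strand by *9130213A22Rik*, which had 1.61 TPM in iSLCs and 0.09 TPM in IM3. The strand setting of the counting is not given in the sources used here, and reads of the 2 genes in that overlap cannot then be told apart. The expected counts of *Hes7* were whole numbers in every library. The *Dll1* overlap with *A930024N18Rik* covers 20.5% of its exon bases, and that gene had at most 0.107 TPM in any group mean. The expected counts of *Dll1* were not all whole numbers, as with 169.06 in the third iSLC library, so some of its reads were shared with another gene.

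In the related lists, calls went both ways. Of the tail bud and primitive streak genes, 3 of 15 were DE lower in iSLCs and none higher, and the Wnt-linked cyclic genes were lower in 6 of 9 and higher in 1. The FGF-linked cyclic genes were higher in 3 of 7, led by the FGF inhibitors *Spry2* (1.91, SE 0.069, adjusted p = 5.23e-19) and *Spry4* (1.76, SE 0.088, adjusted p = 5.51e-16), and lower in 1. In the Notch pathway 2 of 19 rose, *Heyl* by 4.19 (SE 0.2, adjusted p = 2.14e-16) and the receptor gene *Notch3* by 1.49 (SE 0.067, adjusted p = 6.09e-17), and 3 fell, led by *Hey1* at -4.37 (SE 0.12, adjusted p = 4.47e-21) and *Hey2* at -2.68 (SE 0.11, adjusted p = 1.12e-17). Of the segmentation and somite genes, 2 of 20 rose, *Meox1* by 5.20 (SE 0.15, adjusted p = 4.19e-21) and *Tcf15* by 1.92 (SE 0.2, adjusted p = 2.46e-09), and 3 fell. Neural genes had no call among the 12 tested of 14, cardiac mesoderm genes were lower in 6 of 10 and higher in 1, definitive endoderm genes lower in 2 of 6 and higher in 1, and red blood cell genes lower in 2 of 6. The comparison shares the IM3 libraries with those above, and the virus, culture and sort cannot be told apart.

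The genes most like each member in pattern were sought over the 9 group means of log2 CPM among 20839 genes, as a description with no test. For *Msgn1*, *Mesp1* ranked 4 of all genes (Pearson r = 0.972) and *Tbx6* 45 (r = 0.926), after *1110012L19Rik* (r = 0.9858), *Erap1* (r = 0.9824) and *Gbp2* (r = 0.9742). For *Tbx6* the nearest were *Tmem243* (r = 0.9858), *Lrrc61* (r = 0.9787) and *Il17ra* (r = 0.9605). *Dll1* had *Mesp2* among its 3 nearest (r = 0.9856), so these 2 genes of the set were close in pattern. *Hes7* stood apart from the rest, with r = 0.678 to *Tbx6*, 0.446 to *Msgn1* and 0.048 to *Dll3*. With 9 points that share the same culture series, many genes reach high values.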

How the data were processed

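RNA-seq of 27 libraries was analysed. The authors trimmed reads with Cutadapt (1.9.1), aligned them with STAR (2.5.2a) to GRCm38 and quantified genes with RSEM (1.3.0), and deposited expected counts, TPM, FPKM and transcript lengths per gene. The deposited expected counts were rounded. The deposited TPM and FPKM values were used as levels, without a test. Gene names and coordinates came from GENCODE for GRCm38, which gave names to 48349 genes. The strand setting is not given in the sources used here.

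One model over 27 libraries was fitted with edgeR (4.0.16, R 4.3.3): TMM factors, filterByExpr (20839 genes kept), quasi-likelihood test, Benjamini-Hochberg adjustment over the genes kept. Normalised counts are scaled to a mean effective library of 59967514. Thresholds follow the study's methods, where DESeq2 was fitted. On simulated counts for M against EpiSC (20839 genes), edgeR recovered 97% of genes changed 3-fold and 100% of those changed 6-fold, and called 1 unchanged gene. These rates used the adjusted p and the 2-fold change without the count minimum, so they do not describe the DE calls. The simulation left out genes of very low count from those changed, used the trended spread and gave unchanged genes the same mean in every group. Bounds for groups at 0 use 3 counts per library, and 95% intervals cover counting error.

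The members and lists were chosen with earlier results of these data known. Named were the 9 members, at most 2 DE genes up and 2 down of each other list per comparison where that list is given, and the 3 genes nearest in pattern. Genes named for a label check or an overlap were named for that purpose. Alternatives were other scalings, offsets for length and GC content, DESeq2 (1.42.0), filters, thresholds, subsets of groups, a block for the replicate number, and leaving out each library. Counts between replicates differed beyond sampling noise (chi-square per degree of freedom 3.53 to 50.2).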

Additional observations from a re-analysis of the deposited data

How the results depend on the processing

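No fold change that passed the test changed sign under the alternatives run. Without the count minimum the number of DE genes among the 9 was 4 from ESCs to EpiSCs, 4 in IM3 against IM1, 1 in IM2 against IM3, 3 in IM5 against IM4 and 5 in iSLC against IM3. In IM3 against IM1 it was 2 without the fold minimum, where 7198 of the 20839 genes tested were called. It was 0 with the GC offset, 0 with the GC offset and replicate block, and 0 when the groups compared were fitted alone. Of all genes, 1237, 1241 and 1360 were then called. Leaving out 1 library gave 0 to 1 of the 9 genes (0 without IM3 replicate 2 or 3). In iSLC against IM3 fitted alone the number was 1, beside 4133 of all genes, as the mean of *Dll1* over those groups was then under the minimum. For the fold changes of single genes, only the side of the adjusted p threshold was followed, without the fold or count minimum. Other alternatives kept that side in 834 cases, lost it in 12 and gained it in 1. Leaving out a library kept it in 669, lost it in 6 and gained it in 3. Calls lost by fold alone, such as *Dll1* in IM3 against IM1 with the GC offset (-0.93), are among the cases kept. From EpiSCs to M, the DE genes among all genes were 3023, 5842 without the count minimum and 9645 without the fold minimum. The interaction gave 7 DE genes in all, and 3 to 36 under the alternatives. Libraries of the same replicate number showed no pairing on average (mean correlation of deviations from the group mean 0.002). The value for different numbers, -0.001, largely follows from centring each group and adds no evidence. Single pairs ranged from -0.118 in IM4 against M to 0.126 in IM3 against M. With the replicate block the count was 4 in M against EpiSC, as without it, and no other count of the 9 genes changed. The GC offset moved the median of all genes in M against EpiSC from -0.056 to -0.117. Low counts limit the IM comparisons: *Hes7*, *Dll3* and *Tbx6* had under 100 counts per library there.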
